A study of Mus musculus with 31 samples.

Results

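Mammary tissue of mice that keep 2 functional alleles of the STAT5 genes can hold them in different mixes, and these mixes were compared on day 6 of pregnancy. AB mice (genotype Stat5ab+/null) kept 1 Stat5a and 1 Stat5b allele on the same chromosome. BB mice (genotype Stat5a-/-) had no functional Stat5a and kept 2 Stat5b alleles. Both groups thus had 2 of the 4 wild-type alleles, and the labels name no Cre line for either. All samples carry the label of 1 mixed strain background, 129SV::FVB/N::C57BL/6. Poly(A) RNA was sequenced from mammary tissue collected without lymph nodes. For each genotype the labels list 3 samples, although the protocol speaks of 2 mice per genotype. The table holds 1 column per genotype, the authors' mean, in FPKM, a fragment count corrected for the length of the transcript and the size of the library. No value below therefore has an SD, a number of replicates or a p-value, and no difference has a replicate check. The depth of sequencing is unknown. The FPKM of a day 6 column summed to between 433958 and 528347.

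Every gene with at least 1 FPKM in AB or BB was compared, 12898 of the 22609 genes in the table (57.0%). Levels are FPKM scaled between the 6 genotype columns of the stage by median ratios. Ratios are log2 ratios of scaled FPKM + 1, AB over BB, and they understate the differences of weakly expressed genes. Just inside the minimum lay Prox2 (0.894 FPKM in AB and 1.0006 in BB) and Dclk3 (1.00 and 0.831), and just outside it lay Il1b (0.971 and 0.999976) and Dlx5 (0.999972 and 0.341). The other columns of the stage gave context: Null (both genes deleted in mammary epithelium with MMTV-Cre), B and A (a single Stat5b or Stat5a allele) and AABB (wild type).

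STAT5A and STAT5B are closely related transcription factors that sit beside each other in the genome. Prolactin and growth hormone, through their receptors and the kinase JAK2, cause them to be phosphorylated, to pair and to bind DNA at sites of the form TTCNNNGAA. In early pregnancy they act in the luminal epithelium, where progesterone-induced RANKL drives the growth of alveoli and prolactin brings on the milk protein genes.

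Most genes differed little between the mixes. The median log2 ratio was −0.01, and 5% of genes lay below −0.43 and 5% above 0.61. Past 2-fold, 327 genes were higher in AB (2.54% of those compared) and 136 were lower (1.05%), together 463 (3.59%). Past 4-fold, 107 were higher (0.83%) and 40 lower (0.31%). On the higher side the nearest gene to the threshold was Ifit1 (9.60 in AB and 4.30 in BB, ratio 1.00), with Pcdhga11 just short of it at 0.997. On the lower side Rem2 was just past it and Tnfrsf19 just short at −0.996. When ratios were centred on 20 luminal epithelium genes instead, whose median was −0.46, the split became 769 higher and 59 lower. The balance of directions thus depended on the centring. Lower genes close to the threshold, such as Spp1 and Amdhd1 below, fell within 2-fold under it.

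**Figure D1:**
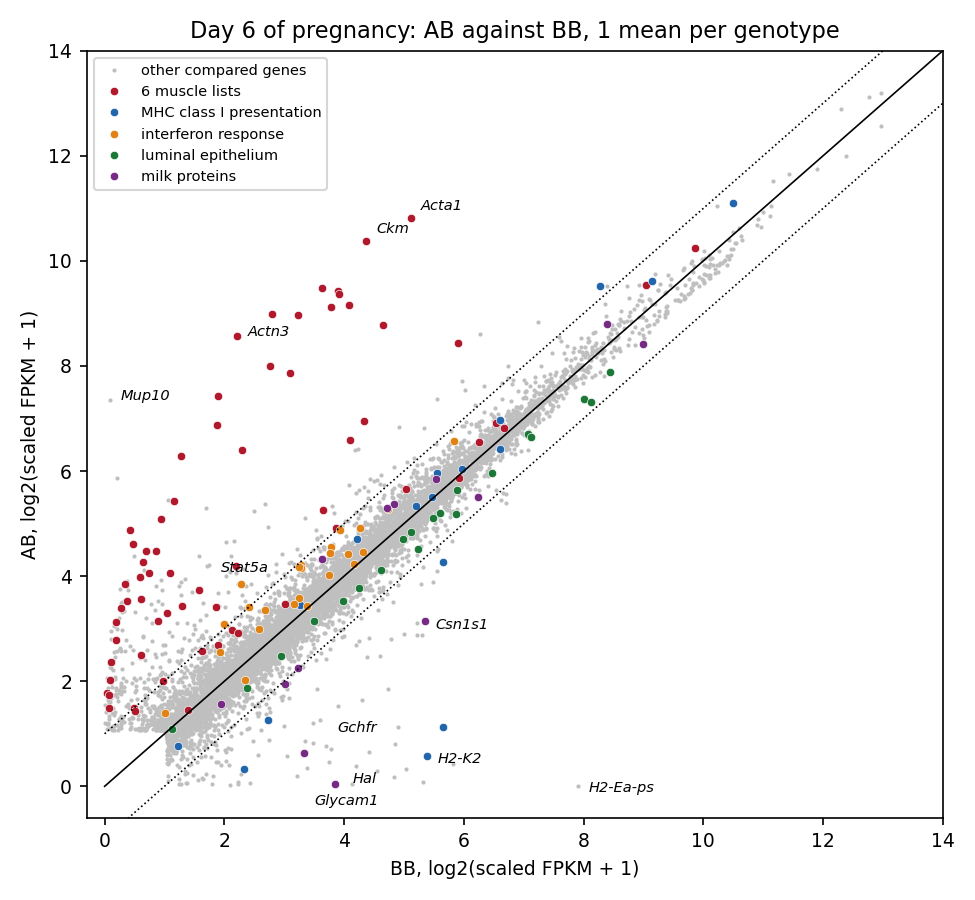
Levels of the 12898 compared genes on day 6 of pregnancy, BB on the horizontal and AB on the vertical axis, both as log2 of scaled FPKM + 1, each point a gene and each axis 1 genotype mean. The solid line marks equal levels and the dotted lines a 2-fold difference; the muscle genes form a separate cloud above the lines, H2-K2, Gchfr and Hal lie near 0 in AB, and the luminal epithelium genes lie just below the diagonal.

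The STAT5 genes came first, since they check the labels. Stat5a was 3.67 in BB and 13.4 in AB, against 13.6 in Null, 12.5 in B, 15.9 in A and 33.6 in AABB (log2 ratio AB over BB 1.63). BB was the lowest of the 6 columns by over 2-fold, as its genotype states, while B, which also lacks a functional Stat5a allele, was close to AB. Stat5b was 14.9 in BB and 11.7 in AB (−0.33), lower in the mix with 1 allele by less than 2-fold, but 0.13 when centred on the luminal genes. Of 23 genes around the Stat5 locus none but Stat5a passed 2-fold, with a median of 0.03 (−0.03 with the FPKM left unscaled).

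The genes nearest to STAT5 signalling differed in both directions and mostly by less than 2-fold. Of 16 compared genes for feedback and direct targets, none was 2-fold higher in AB and 1 was lower, with 7 above 0, 9 below 0 and a median of −0.08 (0.39 when centred on the luminal genes). Cish, a feedback inhibitor that cytokines induce through STAT5, was 19.2 in AB and 10.3 in BB, against 52.7 in AABB. Socs2, which restrains growth hormone signalling, was 15.7 and 8.94, and the growth factor gene Igf1 45.9 and 29.7. All of these stood higher in AB than in BB, at log2 ratios of 0.84, 0.75 and 0.61. Null, with neither gene, was at 19.5 for Cish, 16.5 for Socs2 and 30.5 for Igf1. BB was the lowest column for Cish and Socs2, and AABB (17.7) was the lowest for Igf1.

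Some genes that regulate the epithelium, picked with their values known, were lower in AB, while the estrogen receptor gene Esr1 (18.2 in AB and 14.7 in BB, 0.29) was not. Tnfsf11, which encodes RANKL, was 21.2 in AB and 46.1 in BB, with 47.5 in AABB (−1.09). The prolactin receptor gene Prlr was 14.7 and 29.7 (−0.96). Elf5, the transcription factor of alveolar fate, was 20.1 and 32.5 against 113 in AABB (−0.67), and Id2 was 29.4 and 45.7 (−0.62). BB was thus level with the wild type for Tnfsf11, and both mixes were far below it for Elf5. The ratios of this paragraph are not centred on the luminal epithelium genes, whose own median was −0.46.

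In the early pregnancy hormone response list, 3 of 15 compared genes were 2-fold lower in AB, none was higher, and 13 lay below 0 (median −0.45, or 0.01 when centred on the luminal genes). Gjb2, the gap junction gene for connexin 26, was 6.11 in AB, 20.3 in BB and 65.2 in AABB (−1.58). Rspo1, a secreted amplifier of WNT signalling in luminal cells, was 11.6, 25.3 and 105 (−1.06). For both genes AB was lowest and wild type highest of these columns. Over all columns of the stage AB was not the lowest. Gjb2 was 2.37 in Null and 4.55 in B, and Rspo1 was 3.49 in Null. Tph1, which makes serotonin and is a prolactin target, was among the 2 genes above 0, at 14.8 in AB and 9.28 in BB (0.62), and the progesterone receptor gene Pgr stood at 3.46 and 6.52 (−0.75). Without the shared offset of the luminal genes, that is, centred on their list, Tnfsf11 ended at −0.62 and Rspo1 at −0.60, within 2-fold.

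Milk protein genes leaned lower in AB. Of 13 compared, none was higher in AB and 4 were lower, 5 lay above 0 and 8 below, and the median was −0.56 (−0.10 when centred on the luminal genes). Csn1s1, encoding alpha-S1-casein, was 7.84 in AB and 39.8 in BB, beside 2.62 in Null, 2.92 in B, 33.3 in A and 1148 in AABB (−2.21). BB thus lay near the single Stat5a allele column and AB between it and the single Stat5b allele column. Csn2, encoding beta-casein, was 1.96 in AB and 2.83 in BB (−0.37, or 0.09 when centred on the luminal genes), and 2959 in AABB. Cel, the bile salt-stimulated lipase of milk, was 0.543 and 9.10 (−2.71).

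Glycam1, a mucin of milk that lymph node vessels also make, was 0.0247 in AB and 13.5 in BB, against 16.0 in Null, 69.8 in B, 45.6 in A and 81.6 in AABB (−3.82). AB stood apart from all 5 other columns. The lymph node markers Ccl19 and Ccl21a were listed at 0 in both mixes. How reads shared between genes were counted is not given, so these zeros may not mean absence. Cxcl13 was 5.37 in AB and 2.96 in BB, and Madcam1 1.88 and 0.780, so neither Cxcl13 nor Madcam1 moved with Glycam1. Spp1, encoding osteopontin, was 2.88 and 7.11 (−1.06). Above 0 lay the antimicrobial lactoferrin gene Ltf (19.1 and 11.3, 0.71), Wfdc12 (0.57) and Csn3 for kappa-casein (0.54). The milk lipid list had a median of −0.08 over 24 genes (0.38 when centred on the luminal genes), with 1 gene higher, the fatty acid carrier gene Fabp3 (6.62 in AB and 1.11 in BB, 1.85), which muscle also expresses.

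Promoters of 3 milk genes are shown because they carry the STAT5 recognition letters close to the start of transcription. They are RefSeq sequences of build GRCm38.p6, the 250 bases before the start, 5′ to 3′ on the gene's strand, at chr5:87665958-87666207 (plus strand, Csn1s1), chr5:87699426-87699675 (minus strand, Csn2) and chr15:103565082-103565331 (minus strand, Glycam1). Capitals mark the match to TTCNNNGAA, whose first base lies 100, 93 and 145 bases before the start.
Csn1s1: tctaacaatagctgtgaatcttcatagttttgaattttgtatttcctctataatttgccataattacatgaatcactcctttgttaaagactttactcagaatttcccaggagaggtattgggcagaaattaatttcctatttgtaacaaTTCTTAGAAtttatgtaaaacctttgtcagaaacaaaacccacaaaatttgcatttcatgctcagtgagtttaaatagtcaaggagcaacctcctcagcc
Csn2: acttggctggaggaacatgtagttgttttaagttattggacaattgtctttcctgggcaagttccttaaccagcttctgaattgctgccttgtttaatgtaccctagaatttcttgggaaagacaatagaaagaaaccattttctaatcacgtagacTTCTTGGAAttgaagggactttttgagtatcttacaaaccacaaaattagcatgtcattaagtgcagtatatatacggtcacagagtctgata
Glycam1: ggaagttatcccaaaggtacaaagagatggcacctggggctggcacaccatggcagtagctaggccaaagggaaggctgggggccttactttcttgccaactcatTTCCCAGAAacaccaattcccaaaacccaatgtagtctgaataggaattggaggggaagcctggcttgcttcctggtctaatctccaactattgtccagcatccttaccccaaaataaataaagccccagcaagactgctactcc
The letters TTCNNNGAA read alike on both strands. They occur in 3 of 8 milk gene promoters in the RefSeq table (Csn1s1, Csn2 and Glycam1), and in 2197 of all 27025 promoters of the same length (8.13%). Among genes compared here the count was 664 of 9131 (7.27%), among those higher in AB 17 of 232 (7.33%) and among those lower in AB 11 of 78 (14.1%). A match describes the letters in this window and is no measure of binding.

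Epithelial markers moved with these differences. All 20 luminal epithelium genes compared were below 0, none past 2-fold, with a median of −0.46 against −0.01 for all genes. Their summed level was 1108 in AB and 1627 in BB, and 1413 to 2399 in the other columns. Krt18, a luminal keratin gene, was 159 in AB and 277 in BB (−0.80), and the luminal regulator Gata3 21.9 and 36.7 (−0.72). Hormone-sensing luminal genes had a median of −0.32 over 12 (0.14 when centred on the luminal list), and basal and myoepithelial genes −0.04 over 14 (0.42 when centred). The luminal list thus lay lower than the basal list in the AB column. In bulk tissue fewer cells of a type and less RNA per cell cannot be told apart. The part of the luminal share in the lower milk and hormone response values was not tested.

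Fat markers stood opposite to the luminal ones. All 18 white adipocyte genes were above 0 (median 0.42), with 2 past 2-fold. Nnat was 209 in AB and 61.8 in BB (1.74), and Lep, encoding the fat hormone leptin, 186 and 64.2 (1.52). AB lay within the range of the other columns for both, and BB was the lowest column for Nnat. Of 8 brown adipocyte genes 3 were 2-fold higher in AB (median 0.52), among them the uncoupling protein gene Ucp1 at 7.98 and 2.02 (1.57), beside 309 in AABB. Fibroblast genes (median −0.02, 16 genes, 0.44 when centred on the luminal list) and endothelial genes (0.21, 14 genes) held no gene past 2-fold.

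**Figure D2:**
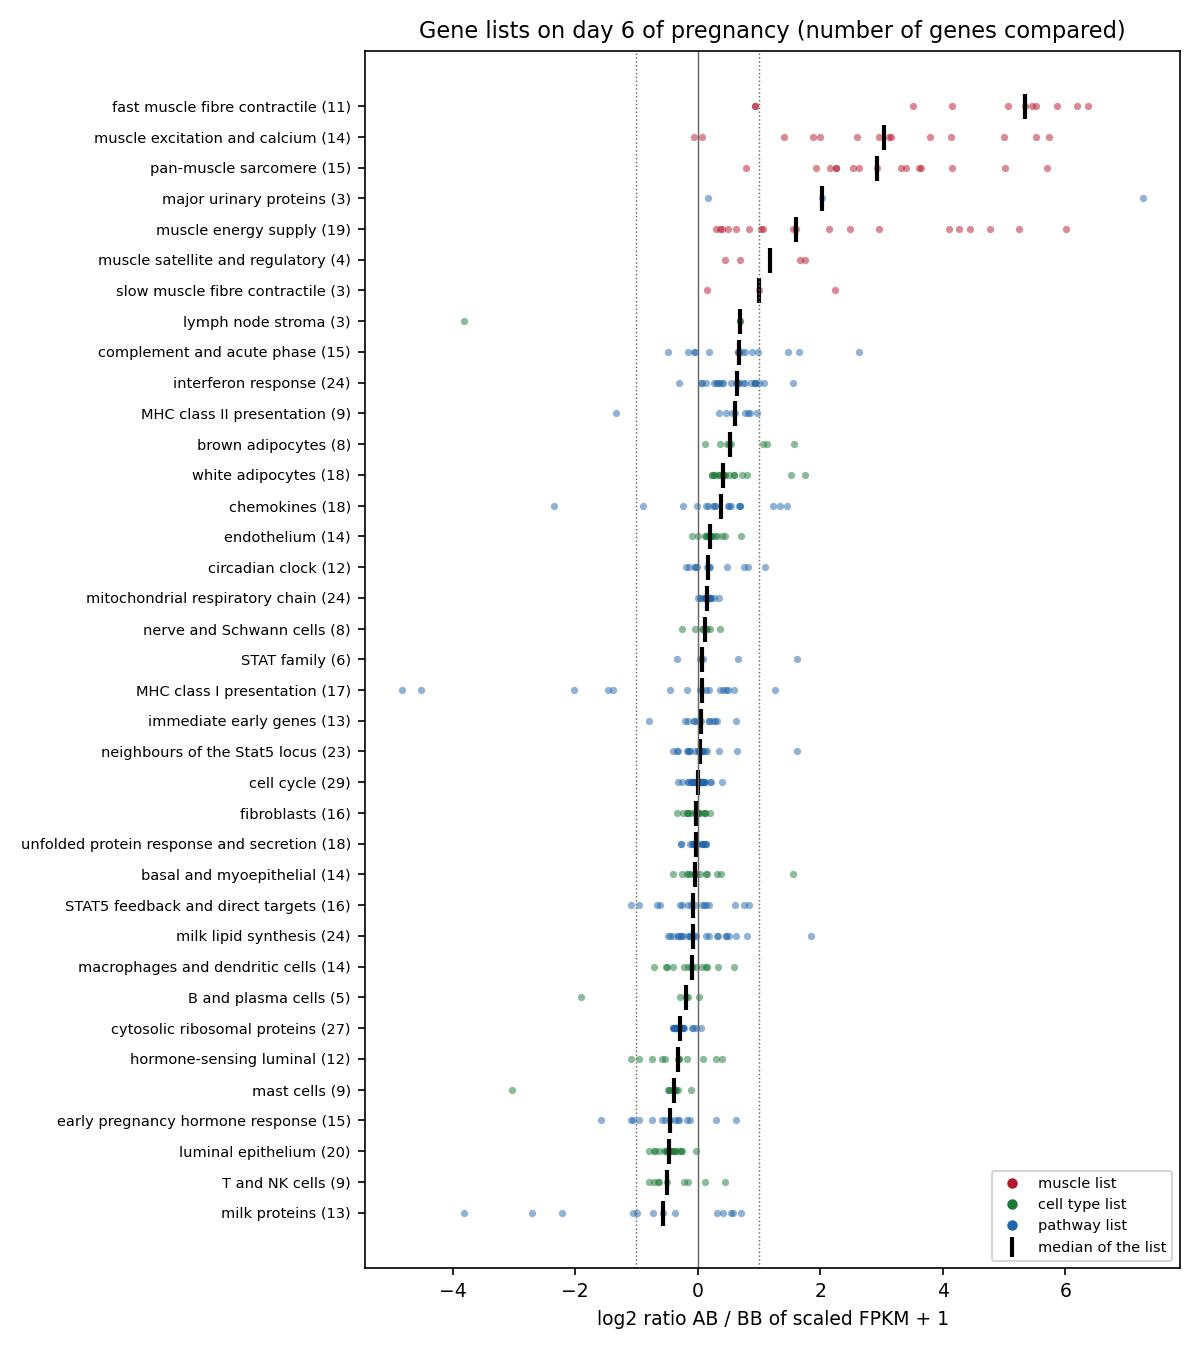
Log2 ratios AB over BB of scaled FPKM + 1 on day 6 of pregnancy for each gene list with at least 3 compared genes, each point a gene and each black bar the list's median, ordered by median, with dotted lines at 2-fold. The highest medians are those of muscle lists (up to 5.34), with the major urinary proteins (2.03) among them, and milk proteins (−0.56), T and NK cells (−0.50) and luminal epithelium (−0.46) at the bottom.

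The largest block of genes higher in AB was skeletal muscle. Of 83 genes in 6 muscle lists 66 were compared, 52 were 2-fold higher in AB, 41 of them 4-fold, and none was lower (median 2.61). They made up 15.9% of the genes higher in AB, so 275 higher genes lay outside these lists. Ckm, the creatine kinase of muscle, was 1328 in AB and 19.6 in BB, against 87.9 in Null, 4.54 in B, 11.3 in A and 18.8 in AABB (6.01). Acta1, skeletal actin, was 1799.9 in AB and 33.6 in BB, against 144 in Null and at most 30.3 in the rest (5.70). AB stood above every other column for both genes, and Null was second.

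The muscle lists differed among themselves by fibre type. Of 11 fast fibre contractile genes 9 were past 2-fold (median 5.34), with a summed level of 4029 in AB and 93.4 in BB. Actn3, the fast-fibre actinin, was 380.1 and 3.63 (6.36), and the fast myosin gene Myh4 506 and 5.98 (6.18). By contrast Myh1 and Myh2, myosins of other fast fibres, were 4.93 and 1.69 in AB and just within 2-fold of BB on this scale (0.94 and 0.93). Only 3 of 10 slow fibre genes reached 1 FPKM in either mix, 2 of them past 2-fold (median 1.01, or 0.94 with unscaled FPKM). The slow myosin-binding protein gene Mybpc1 was 8.81 and 1.07 (2.25). The slow fibre list had a summed level of 124.9 in AB and 105.0 in BB, most of it Tpm3 (112 and 101), which is made outside muscle too. Slow fibre genes thus gave a far smaller summed difference than fast fibre genes.

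Pan-muscle sarcomere genes (14 of 15 higher, median 2.93) and genes of excitation and calcium handling (12 of 14, median 3.04) followed. Pvalb, the calcium buffer of fast fibres, was 498 in AB and 8.42 in BB (5.73), and the calcium pump gene Atp2a1 689 and 14.0 (5.52), while its counterpart Atp2a2 of other tissues stood at 57.1 and 59.7. Of 19 energy supply genes 13 were higher (median 1.60), led by Ckm and the glycogen phosphorylase gene Pygm (257 and 5.80). Regulators were sparse, with Myf6 at 2.34 and 0.0512 and Mstn at 2.44 and 0.0234.

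The 6 lists took 2.65% of all FPKM in AB and 0.472% in BB, against 0.379% to 0.721% in the other columns. These shares include genes that were high in every column, such as Aldoa (1217 in AB, 926 in BB and 1389 in AABB). The fast fibre list alone summed to 4029 in AB and 93.4 in BB. It was 338 in Null, 33.5 in B, 63.8 in A and 101 in AABB. Of the 52 higher muscle genes, 41 (78.8%) had AB first, Null second and B among the lowest 2 columns. This order was found in 84 of the 275 other higher genes (30.5%) and in 359 of all compared genes (2.78%). Its first part follows largely from the choice of genes higher in AB. AB was the highest column for 96.2% of the 52, 76.7% of the 275 and 16.9% of all compared genes. The shares thus describe the columns that set the calls and are no separate check. Since the column is a mean, whether 1 sample or all samples of AB hold the muscle transcripts cannot be told apart. Some of the 275 are muscle genes that the lists leave out. Named after their values were seen, the muscle ubiquitin ligase gene Trim63 was 8.25 in AB and 0.183 in BB, the muscle methyltransferase gene Smyd1 10.4 and 0.301, and the sarcoglycan gene Sgca 5.39 and 0.342.

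**Figure D3:**
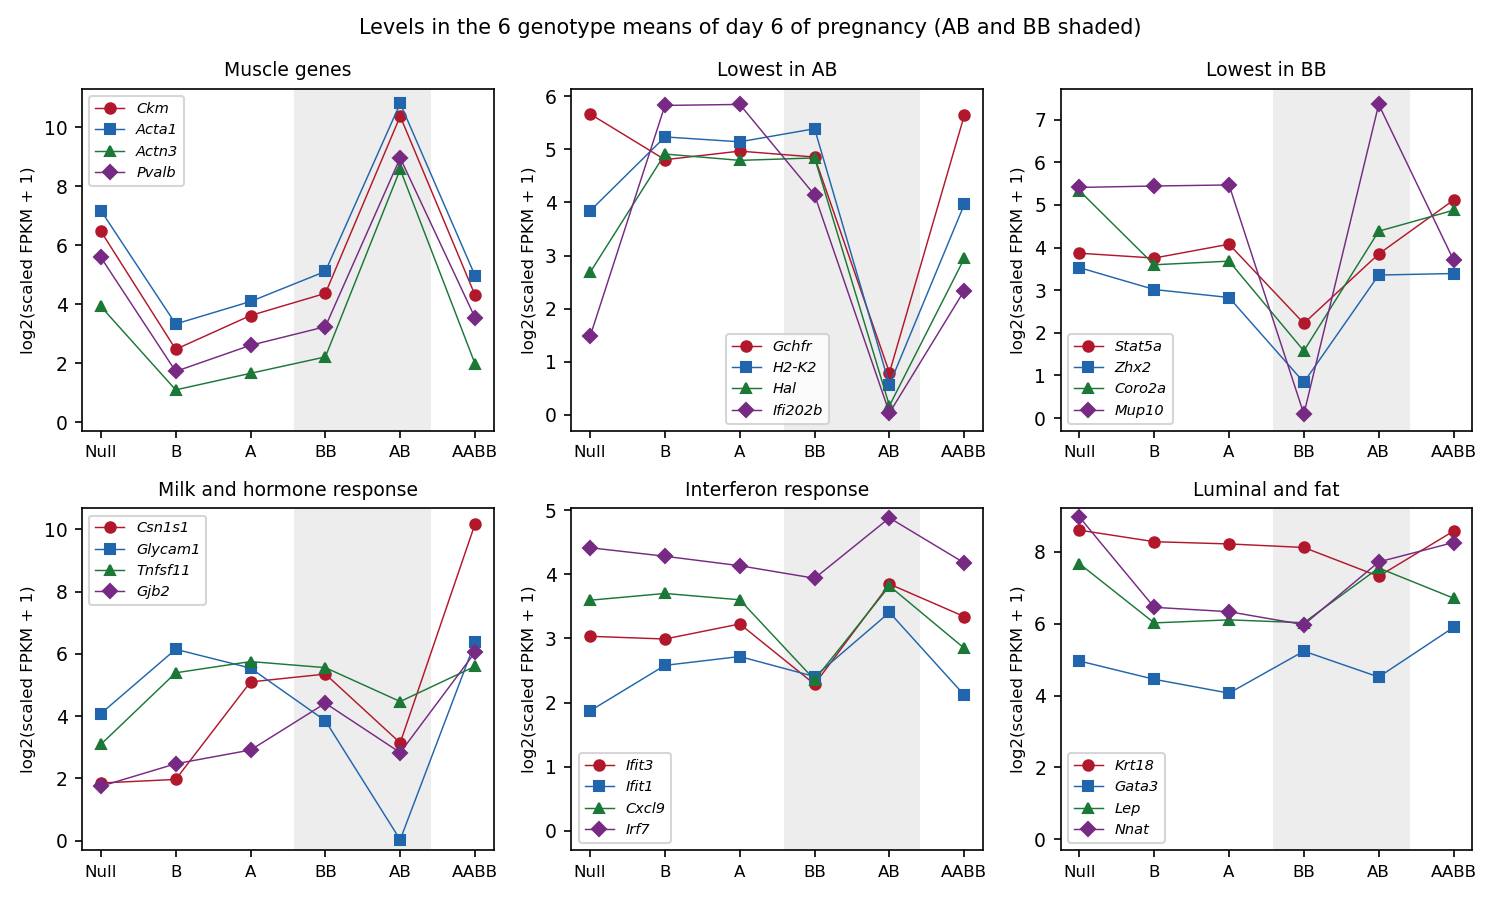
Levels of 24 genes in the 6 genotype means of day 6 of pregnancy, as log2 of scaled FPKM + 1 on the vertical axis, with 1 point per genotype mean, lines that only join the points of a gene, and AB and BB shaded. Muscle genes peak in AB with Null second, Gchfr, H2-K2, Hal and Ifi202b have their lowest value in AB, and Stat5a, Zhx2, Coro2a and Mup10 have theirs in BB.

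For each gene past 2-fold, AB and BB were set against the range of the other columns. Of the 327 genes higher in AB, AB lay at least 2-fold above all 4 other columns for 159 (48.6%, beside 1.68% of all compared genes) and BB at least 2-fold below them for 15 (4.59%, beside 0.519%). Of the 136 lower genes, AB lay below the other columns for 35 (25.7%, beside 0.83%) and BB above for 6 (4.41%, beside 0.388%). These shares describe the same columns that set the calls. For 154 higher and 95 lower genes neither column lay 2-fold or more beyond the other 4.

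Several genes that are not members of a list had their lowest value in AB, at least 2-fold below every other column. Gchfr, the regulator of tetrahydrobiopterin synthesis, was 0.737 in AB and 27.9 in BB, and 26.9 to 49.7 elsewhere (−4.06). Hal, which encodes histidine ammonia-lyase, was 0.128 in AB and 27.6 in BB, and 5.42 to 29.1 elsewhere (−4.66), and Amdhd1, of the same histidine breakdown pathway, was lower near it on chromosome 10 (−1.23). Ifi202b, an interferon-inducible DNA sensor gene with close copies, was 0.0281 and 16.6 (−4.10). It was also low in Null (1.79) and AABB (4.07), against 55.7 in B and 56.5 in A. Gbp1 (also from a family of near copies, 0.370 and 12.5) and Wdfy1 (1.88 and 13.9) were lowest in AB too, as was Hddc3 (6.40 and 36.2).

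Other genes were low in BB alone. Zhx2, a transcriptional repressor of fetal liver genes, was 0.791 in BB and 9.24 in AB, and 6.11 to 10.6 elsewhere (2.52). Coro2a, an actin-binding coronin gene, was 1.99 and 19.9 (2.81), the basement membrane collagen gene Col4a6 0.425 and 9.01 (2.81), and Cela1 0.954 and 10.1 (2.51). For Zhx2, Coro2a and Cela1, AB lay within the range of Null, B, A and AABB. Mup10 was apart in both directions, at 163 in AB, 0.0688 in BB and 12.1 to 43.3 elsewhere (7.26). Major urinary protein genes are near-identical copies, only 3 of 11 reached 1 FPKM, and how reads were shared between them is not given, so their values are uncertain.

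Genes past 2-fold lay in clusters in places, read from the gene order of RefSeq GRCm38.p6 (the files' build is mm9, so no coordinates are given). Chromosome 17 held 22 of the 136 lower genes among 623 compared (3.53%, beside 1.05% of all compared genes), and chromosome 7 held 40 of the 327 higher genes among 982 (4.07%, beside 2.54%). Many of the lower genes on chromosome 17 lay in the major histocompatibility complex. Of 17 class I presentation genes 5 were lower in AB and 1 was higher (median 0.07). H2-K2 was 0.483 in AB and 40.9 in BB, and 13.3 to 36.6 elsewhere (−4.82), and H2-Q2 was 1.20 and 49.3 (−4.52). H2-K1, a classical class I gene in the same region, was higher, at 739 and 307 (1.26), while B2m, the shared light chain, was 2193 and 1447 (0.60). Genes of this family share sequence, so single members are uncertain, and the haplotype of the samples at this locus was not analysed here.

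Class II genes mostly lay above 0 (8 of 9, median 0.60), with H2-Ab1 at 375 and 191 (0.97). H2-DMb2 was the exception at 2.11 and 6.83 (−1.33, within 2-fold at −0.87 when centred on the luminal genes). The class II pseudogene H2-Ea-ps was 0.00999 in AB and 240.3 in BB (−7.90), the lowest ratio of all compared genes. Within the same region Cdsn, the corneodesmosin gene of cornified skin, was 57.2 in AB and 0.157 in BB, and at most 2.45 elsewhere (5.65). Other skin markers did not share this size, with Krt10 at 1.71 and 2.39 and Sbsn at 6.79 and 2.24.

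The listed interferon response genes leaned towards AB as a group, though not all such genes outside the list did. Of 24 compared, 23 lay above 0 and 3 were 2-fold higher, with a median of 0.64. Ifit3, an antiviral effector gene, was 13.4 in AB and 3.88 in BB, and 6.95 to 9.13 elsewhere (1.56), and Rsad2, encoding viperin, 7.50 and 3.00 (1.09). Ifit1 lay at the threshold (1.00, and 0.94 with unscaled FPKM), and Irf7 just below it (28.4 and 14.3, 0.94). Ifi44 was the single member below 0 (−0.31). BB was the lowest column for Ifit3, so that ratio did not rest on AB alone. The interferon-induced chemokine genes Cxcl9 (13.1 and 4.12, 1.46) and Cxcl10 (3.80 and 0.890, 1.35) stood with them, as 2 of the 3 higher among 18 chemokine genes, and Cxcl15 was the 1 lower (−2.34).

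The promoter of Ifit3 is shown because it holds the interferon response letters more than once. It lies at chr19:34583279-34583528 (plus strand, RefSeq, GRCm38.p6). Capitals mark matches to GAAANNGAA or its reverse complement TTCNNTTTC, which begin 155, 121 and 102 bases before the start.
Ifit3: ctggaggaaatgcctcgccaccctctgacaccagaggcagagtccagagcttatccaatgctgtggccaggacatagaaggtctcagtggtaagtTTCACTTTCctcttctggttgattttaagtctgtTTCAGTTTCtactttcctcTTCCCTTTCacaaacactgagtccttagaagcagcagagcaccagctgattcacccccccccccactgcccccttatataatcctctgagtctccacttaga
These letters occur in 12 of 20 interferon list promoters (60%), in 2211 of all 27025 (8.18%), in 685 of 9131 compared genes (7.5%) and in 26 of 232 genes higher in AB (11.2%). Matches to TTCNNNGAA and to these letters were counted separately and can overlap.

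Immune cell lists held few genes past 2-fold, and their medians lay below 0. Macrophage and dendritic cell genes had a median of −0.10 over 14 (0.36 when centred on the luminal list), T and NK cell genes −0.50 over 9 (−0.04 when centred) and mast cell genes −0.39 over 9 (0.07 when centred, all 9 below 0 before), with Tpsab1 the 1 mast cell gene past 2-fold (−3.03). Of 5 B and plasma cell genes only the immunoglobulin joining chain gene Igj was past 2-fold, at 4.54 in AB and 19.8 in BB (−1.91). Some of the lowest ratios belonged to genes that macrophages can express. Mmp12, macrophage elastase, was 0.708 in AB and 11.9 in BB, with 16.3 in Null and 32.8 in AABB (−2.92). Atp6v0d2 (0.483 and 7.26), the lipid receptor gene Trem2 (4.61 and 23.3) and Gpnmb (7.66 and 36.0) had the same order of columns at the top, AABB and then Null. Members of the macrophage list lay on both sides of 0 (5 of 14 above), with Cd68 (59.0 in AB and 83.9 in BB, −0.50) on one and the complement gene C1qb (220.5 and 145, 0.60) on the other.

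Of 15 complement and acute phase genes 11 lay above 0 and 4 below, with 3 of them 2-fold higher in AB and a median of 0.67. Below 0 were Hp (370 in AB and 515 in BB, −0.48) and Lcn2 (96.2 and 100, −0.06), and the 3 past 2-fold were all Saa genes. Saa3 was 24.2 in AB and 3.08 in BB, with 22.6 in B (2.63). Its neighbours Saa1 and Saa2, near copies of each other, were 3.16 and 3.01 in AB. Other plasma protein genes, named after their values were seen, differed in both directions. Fgg, a fibrinogen chain, was 8.20 in AB and 0.620 in BB (2.50), and 19.6 in B. The apolipoprotein genes Apoa2 (4.42 and 0.512) and Apoc3 (4.30 and 1.10) were at low levels throughout. Serpina1b, an alpha-1-antitrypsin gene with close copies, stood the other way at 0.776 and 10.1 (−2.65). Serpina3h (−1.54) and Serpina3m (−1.85), close to it on chromosome 12, were also lower in AB. In the insulin-like growth factor axis, Igf2, a fetal growth factor, was 38.5 in AB and 2.22 in BB, and at most 6.48 elsewhere (3.62). Its imprinted neighbour H19 was 164 and 45.7 (1.82). Both sit beside the fast muscle genes Tnni2 and Tnnt3 in a run of 5 higher genes on chromosome 7.

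Housekeeping groups set the scale of these shifts. None of 29 cell cycle genes passed 2-fold (median 0.01, or −0.04 with unscaled FPKM), and Top2a was 13.6 in AB and 11.7 in BB. Of 27 cytosolic ribosomal protein genes 26 lay below 0 (median −0.30, or 0.17 when centred on the luminal list), and all 24 respiratory chain genes lay above 0 (median 0.16), none of either past 2-fold. The clock output gene Dbp was 5.00 in AB and 2.38 in BB but 22.6 to 45.6 in the other columns, and Per2 1.26 and 1.51 against 5.14 to 13.2. The mixes thus resembled each other in these clock genes and stood together away from the other 4 columns. Of 12 clock genes only Nr1d1 was past 2-fold between them (1.10). The hour of collection is not among the labels used here.

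The same mixes were measured again within 12 hours of delivery, in other samples and a separate table, with 2 listed samples each. There 143 of 12445 compared genes were 2-fold higher in AB (1.15%) and 98 lower (0.787%). Of the 327 genes higher on day 6, 153 were compared at both stages, and 22 of these were higher at both, 14.4% of the 153 and 17.6% of the 125 genes higher at parturition. For the lower genes the overlap was 25, 21.6% of 116 and 31.6% of 79. Over all 12087 genes compared at both stages, 1.03% were higher and 0.654% lower at parturition. In the opposite direction stood 5 of the 153 (3.27%) and 1 of the 116 (0.862%).

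Muscle genes made up 1 of the 22 genes higher at both stages. Of the 52 higher muscle genes 16 were compared at parturition, and only Acta1 was past 2-fold higher, at 4.63 in AB and 1.35 in BB. Other columns of that stage were far above both mixes, with Acta1 at 800 in Null, 617 in B and 730 in A. Ckm was 587, 385 and 344 in these columns, against 0.780 in AB and 0.611 in BB. High muscle transcripts were thus not particular to AB across the stages. The summed level of the 6 lists at parturition was 1266 in AB and 1807 in BB. Most of it came from the energy supply list (896 and 1486), with Aldoa alone at 333 and 492. Fast fibre genes summed to only 8.35 in AB and 8.03 in BB, so the sums show no reversal of the fast muscle signal. Interferon genes also differed, with a median of −0.47 and 5 of 25 lower in AB at parturition. Glycam1 was then at 50958 in AB and 28455 in BB (0.84), and Csn1s1 at 38716 and 39756 (−0.04).

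Stat5a itself recurred, at 22.9 in AB and 4.30 in BB (2.17). Ly6e, a small surface protein gene induced by interferon, was 456 and 149 on day 6 (1.60) and 821 and 196 at parturition (2.06). Agt, the angiotensinogen gene, gave ratios of 1.29 and 2.55, the glycosyltransferase gene B3gnt3 1.53 and 2.26, Coro2a 2.81 and 1.51, Col4a6 2.81 and 1.70, and Igf2 3.62 and 1.60. The feedback gene Cish passed 2-fold only at parturition (26.5 and 9.35, 1.41), and the difference between the stages was not tested. Ly6d and Ly6e are neighbours on chromosome 15 and were both higher in AB at both stages. Ly6c2, from the same gene family, was lower at both (−2.66 and −1.43). How reads shared between related genes were counted is not given.

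Among genes lower in AB at both stages, Ifi202b gave ratios of −4.10 and −2.01 and Gchfr −4.06 and −1.42. The corneal proteoglycan gene Kera was 5.99 in AB and 26.6 in BB on day 6 and 2.76 and 13.1 at parturition, and the angiotensin receptor gene Agtr2 0.512 and 4.90, then 0.227 and 3.65. For both genes BB was the column that stood above the others on day 6. Duoxa1, which matures a hydrogen peroxide-producing oxidase, was further apart at parturition (−2.38) than on day 6 (−1.25, within 2-fold at −0.78 when centred on the luminal genes). Wdfy1 (−2.37 and −1.55), Rarres1 (−2.89 and −1.41), Pdgfrl (−2.10 and −1.43) and Hddc3 (−2.33 and −1.05) also kept their direction past 2-fold. H2-K2 was within 2-fold at parturition, at 14.1 in AB and 17.6 in BB.

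**Figure D4:**
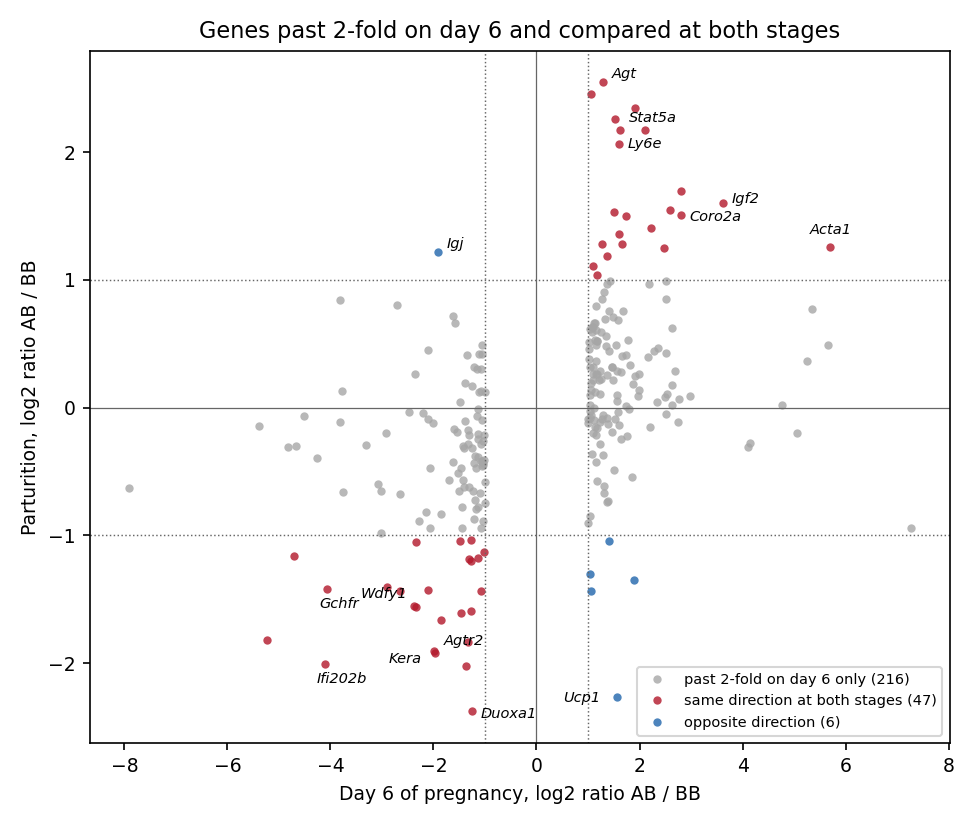
Log2 ratios AB over BB on day 6 of pregnancy (horizontal) and at parturition (vertical) for the 269 genes past 2-fold on day 6 and compared at both stages, each point a gene, with dotted lines at 2-fold. In red are 47 genes past 2-fold in the same direction at both stages, in blue 6 in opposite directions, and in grey 216 past 2-fold on day 6 only.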

How the data were processed

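Poly(A) RNA was measured in mammary tissue of 6 genotypes at 2 stages, pregnancy day 6 and up to 12 hours after birth, 31 listed samples. Reads were processed with CASAVA and TopHat on mm9, per the submitters' processing notes; versions, the program that gave FPKM, the annotation and any filter are not given in the sources used here. The deposited values are FPKM, 22609 genes in each of 2 tables, with 1 mean column per genotype made by the authors. Values of at least 1 FPKM were checked for endings like those of a division by 3. In columns with 3 listed samples 67.9% to 69.1% had such an ending, beside 4.43% to 4.89% in columns with 2.

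Within each table the 6 columns were scaled by median ratios, using genes that reached 1 FPKM in every column (11733 on day 6 and 10864 at parturition). Factors were 0.956 for BB and 0.916 for AB on day 6. Log2 ratios of scaled FPKM + 1 were counted past 2-fold (4-fold as a second count), with no test. A fold is never given against 0.

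The members and the 39 gene lists were chosen with earlier results of these data known. Named genes are Stat5a and Stat5b, up to 3 members at each end of a list (all of a list of 7 or fewer), the 20 highest and 20 lowest characterised genes, and the 10 highest and 10 lowest of those past 2-fold at both stages; genes outside this rule are the set members, neighbours and examples named for their values. Promoters and gene order came from RefSeq GRCm38.p6 (12822 of 12898 genes placed), and transcript length and GC content from GENCODE M21. Motifs were searched in the 250 bases before the start. The calculation was tested on simulated data. Alternatives were a pseudocount of 0.1, no minimum or a minimum of 5 FPKM, 3 other scalings and removal of length and GC trends; scaling without muscle genes, leaving them out, and centring on luminal genes were chosen after seeing the data. The work ran in Python 3.11.15 (pandas 2.3.3, numpy 2.4.6, statsmodels 0.14.6, scipy 1.17.1; figures with matplotlib 3.10.9).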

Additional observations from a re-analysis of the deposited data

Results flagged for a closer look

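For 6 genes the log2 ratio AB over BB was past 2-fold in opposite directions on day 6 and at parturition. The difference between the stages, day 6 minus parturition, was 3.84 for Ucp1, 3.24 for Tmem52, 2.51 for Cox7a1, 2.45 for Npr3, 2.34 for Fbp2 and −3.13 for Igj. Ucp1 and Cox7a1 are genes of brown fat, Cox7a1 and Fbp2 are also used in muscle, and Igj is a plasma cell gene. With unscaled FPKM Fbp2 was within 2-fold on day 6 (0.97). These are differences of means and were not tested.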

How the results depend on the processing

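No paired analysis was possible because the tables hold genotype means and no value per sample. For the same reason leaving out each replicate and the replicate block were not run. The other 10 alternatives were run, 7 planned and 3 chosen after seeing the data. With a pseudocount of 0.1 the lower genes numbered 218, those higher at both stages 39 and those lower at both 42. The list medians that moved past 1.5-fold there were major urinary proteins 4.71, slow fibre 1.93, pan-muscle sarcomere 4.55, muscle excitation and calcium 4.70 and muscle regulators 2.42. Without a minimum, medians were 0.0422 for major urinary proteins, −0.0039 for slow fibre genes (reversed), 0.14 for muscle regulators and 0.0587 for lymph node stroma, lists in which at least 3 genes of the table are under 1 FPKM. A minimum of 5 FPKM left 192 higher and 84 lower genes. Centring on the luminal list gave 769 and 59. Of 131 named genes past 2-fold, 22 fell within 2-fold in at least 1 setting, mostly under that centring. With no scaling the counts were 299 and 146, with length and GC trends removed 332 and 135, and with muscle lists left out 275 and 136. Depth is unknown, so genes near 1 FPKM carry an unmeasured counting error.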
